A study of Mus musculus with 2 samples.

Results

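The genes described here encode the protein subunits of the cytosolic ribosome. They were taken by name: symbols that begin with Rps or Rpl and a digit, with Rpsa, Rplp0, Rplp1 and Rplp2, and without 8 pseudogene symbols that carry -ps and 10 symbols of the Rps6k kinases. This gave 87 of the 31253 genes in the count files, of which 35 carry an Rps name and 52 an Rpl or Rplp name. By name, 77 are subunits, 31 of the small and 46 of the large subunit, and the other 10 are paralogs or genes that only share the prefix, such as Rps19bp1. The naming rule does not take in every component of the ribosome; Fau and Rack1, for instance, fall outside it.

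The cells came from mouse brain at stage E12.5 and were sorted with magnetic beads against CD31, an adhesion protein of endothelial cells. One library was made from Foxq1flox/flox brain, in which loxP sites flank Foxq1, a forkhead transcription factor gene, and one from Foxq1iECKO brain. The labels do not spell out iECKO and do not state which Cre line was used, when it was induced, how many embryos were pooled, or their sex. Each transcript was counted at its 3′ end by a unique molecular identifier (UMI), and below the Foxq1flox/flox value always comes before the Foxq1iECKO one. With 1 library for each genotype no difference between genotypes has a replicate check, and brackets hold 95% intervals that cover counting error only.

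Ribosomal proteins assemble with ribosomal RNA in the nucleolus into a small subunit, which reads the messenger RNA, and a large subunit, which joins the amino acids. Because every ribosome needs nearly all of these proteins in equal number, their mRNAs are among the most abundant of a growing cell. They are known for a run of pyrimidines at the 5′ end, the terminal oligopyrimidine (TOP) tract, through which the mTORC1 pathway, LARP1 and growth signals act on their translation and stability. Proliferating cells make many ribosomes, and postmitotic neurons are known for lower ribosome production. Mutations of single subunits cause specific defects; loss of Rpl38, for instance, changes the axial skeleton of the mouse.

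The starts of a few members named below are shown, some with the tract and some without. They do not represent all members, whose share with such a run is given after the windows. Each window spans 30 bases, 15 before the annotated first transcribed base and 15 from it on, 5′ to 3′ on the transcribed strand, from RefSeq on build GRCm38.p6. Capitals mark an unbroken run of 5 or more letters C or T that covers the annotated first base. Rps24, Rpl35a and Rps27l have more than 1 annotated start, and 1 is shown; the other starts of Rps24 and Rpl35a hold no such run.
Rps6 (small subunit, chr4:86857353-86857382, minus strand): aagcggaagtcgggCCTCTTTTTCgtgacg
Rps24 (small subunit, chr14:24490663-24490692, plus strand): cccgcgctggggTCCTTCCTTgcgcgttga
Rps27 (small subunit, chr3:90213634-90213663, minus strand): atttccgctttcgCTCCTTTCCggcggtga
Rps10 (small subunit, chr17:27635230-27635259, minus strand): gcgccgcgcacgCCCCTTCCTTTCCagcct
Rpl35a (large subunit, chr16:33056467-33056496, plus strand): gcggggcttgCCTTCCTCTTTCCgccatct
Rpl38 (large subunit, chr11:114668565-114668594, plus strand): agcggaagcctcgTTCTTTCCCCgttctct
Rpl15 (large subunit, chr14:18270972-18271001, minus strand): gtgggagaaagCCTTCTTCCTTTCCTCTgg
Rpl7a (large subunit, chr2:26910792-26910821, plus strand): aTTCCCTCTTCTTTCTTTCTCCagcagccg
Rpl14 (large subunit, chr9:120571502-120571531, plus strand): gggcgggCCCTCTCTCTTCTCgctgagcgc
Rpl35 (large subunit, chr2:39005117-39005146, minus strand): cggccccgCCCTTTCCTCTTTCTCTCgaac
Rps13 (small subunit, chr7:116334176-116334205, minus strand): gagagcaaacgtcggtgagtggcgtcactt
Rps27l (paralog of Rps27, chr9:66946071-66946100, plus strand): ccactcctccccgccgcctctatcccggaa
Rpl22l1 (paralog of Rpl22, chr3:28805493-28805522, plus strand): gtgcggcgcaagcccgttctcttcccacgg
Rpl7l1 (relative of Rpl7, chr17:46782642-46782671, minus strand): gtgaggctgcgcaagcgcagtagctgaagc

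Of the 67 members with an entry in the promoter table, 22 (32.8%) had such a run at an annotated start, against 11.8% of 27025 genes. A run of 8 or more was found for 18 members (26.9%) and for 4.59% of all genes. When the run only had to cover some base within 5 bases of the annotated start, wherever it began, the shares were 55.2% and 36.7%. The search used the transcribed strand only, and a window without the run says only that these letters do not stand at that annotated base.

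The Foxq1flox/flox library held 15837 cell barcodes and the Foxq1iECKO library 15108, with a median of 3836 and 3660 UMIs. After filters and removal of 557 and 551 predicted doublets, 13376 and 12557 cells were used, and 173 barcodes occurred in both libraries among them. Foxq1 itself stood at 443 CPM (the gene's UMIs scaled to a common total over the cells summed) in endothelial-like cells of the first library and at 153 CPM in those of the second, a log2 ratio of -1.53 [-1.62 to -1.46]. Within the 2 endothelial clusters described below the ratio was -1.18 [-1.36 to -0.99] (cluster 0) and -1.06 [-1.15 to -0.98] (cluster 3, 926 and 443 CPM). In neuron-like cells it stood at 10.7 and 9.06 CPM. The labels do not describe the deleted part of Foxq1, so whether these 3′ tags lie within it is unknown. The labels call the cells endothelial, but the endothelial markers placed 2286 and 1591 cells in endothelial-like clusters, and the rest were mainly fibroblast-like, neuron-like, macrophage-like, cartilage-like and neural progenitor-like cells. None of the 87 genes was among the variable genes used for clustering, so the classes do not rest on them.

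Over all cells used the 87 genes together gave 4.21% and 4.47% of the UMIs. The pool was uneven: the 12 most abundant members held 48.6% and 50.1% of it, and 81 of the 87 reached 20 CPM in both libraries. Levels of different genes are per transcript end and were not divided by length. Among small-subunit genes Rps27a, which encodes its protein fused to ubiquitin, stood at 2370 and 2624 CPM, Rps13 at 2237 and 2380, Rps24 at 1465 and 1672, Rps4x at 1406 and 1647, Rps23 at 1431 and 1527, Rps6, the target of S6 kinase, at 1426 and 1574, and Rps20 at 1427 and 1387. Among large-subunit genes Rpl23 stood at 2256 and 2282 CPM, Rpl39 at 2013 and 2427, Rpl7 at 1642 and 1881, Rpl5, which carries the 5S RNA into the ribosome, at 1573 and 1677, and Rpl27a at 1251 and 1304. These 12 genes lead the pool in both libraries.

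The paralogs ran below their relatives. Rpl22l1 stood at 442 and 472 CPM beside 1136 and 1207 CPM for Rpl22, and Rps27l, a p53 target, at 179 and 201 CPM beside 367 and 420 CPM for Rps27. Rpl36al stood at 83.7 and 83.0 CPM beside 612 and 648 CPM for Rpl36a, and Rpl7l1, a nucleolar factor of large-subunit assembly, at 52.0 and 49.97 CPM beside Rpl7. Paralogs known from testis and muscle were at or near 0: Rpl10l had 0 UMIs in both libraries, Rpl3l had 8 and 12, and Rpl39l stood at 2.63 and 3.46 CPM. Rps23rg1, a retrogene, had 14 and 23 UMIs.

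Some of these levels are uncertain because ribosomal protein genes have many processed copies in the genome. Of the 87 genes, 33 had at least 1 near copy, led by Rps2 with 26 and Rps12 with 17. A near copy is another gene with an annotated transcript that matched the member's last 150 bases. The match had 98% identity or more over at least 100 bases and could lie anywhere in that transcript. Not all near copies were annotated as pseudogenes, such as Cd9 for Rpl7l1. The sources used here do not say how the authors counted reads that fit several genes. The clearest case is Rpl10, at 129 and 141 CPM, whose copy Rpl10-ps3 stood at 393 and 388 CPM. Across the 81 members at 20 CPM or more, the rank correlation of mean level with the number of copies was -0.10, with transcript length 0.18 and with GC content -0.59. These are descriptions across genes, which are not independent, with no test.

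The share of UMIs from ribosomal protein genes separated the cell classes more than it separated the libraries. Neuron-like cells were lowest, at 1.94% [1.93 to 1.95] and 2.36% [2.34 to 2.37]. Endothelial-like cells stood at 4.92% [4.91 to 4.93] and 5.30% [5.29 to 5.32], and other leukocyte-like cells were highest, at 6.15% [6.13 to 6.18] and 6.31% [6.28 to 6.34]. In UMIs per cell this was 68.5 and 89.8 in neuron-like, 336 and 338 in endothelial-like and 317 and 297 in leukocyte-like cells. Neuron-like cells also had fewer UMIs in all, with a median of 3266 and 3262 against 4385 and 4137 in endothelial-like cells, and a lower median mitochondrial share, 5.05% and 5.35% against 8.61% and 8.52%; the part of either in the difference was not tested.

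**Figure D1:**
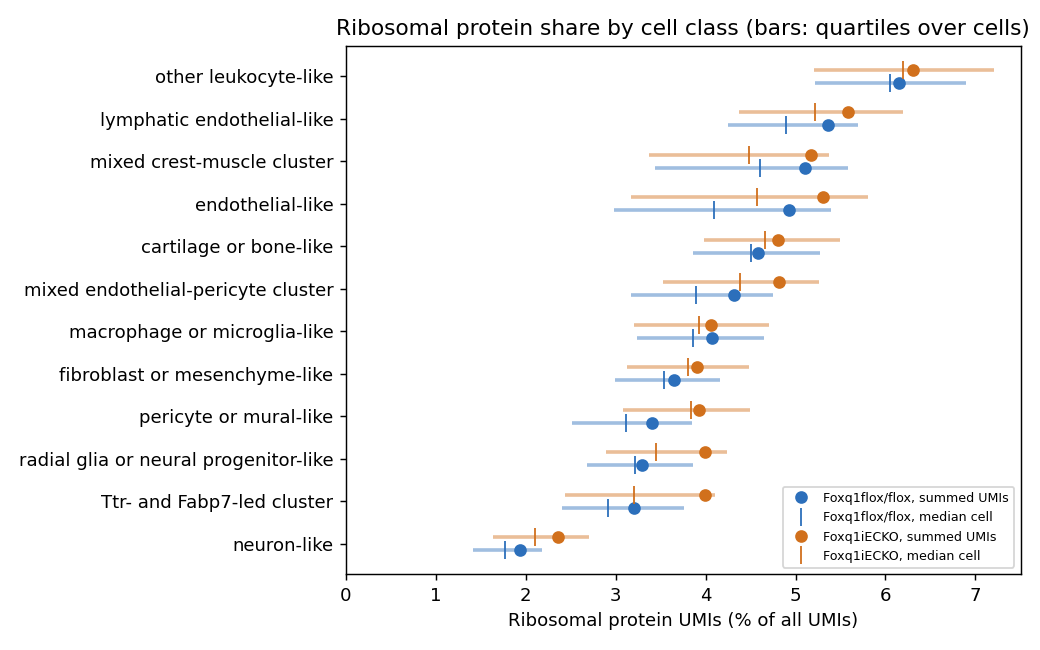
Share of all UMIs that came from the 87 ribosomal protein genes (x axis, percent) in 12 classes and clusters with at least 100 cells in each library (y axis). Dots are summed UMIs, ticks the median cell and bars the quartiles over cells, which are a spread between cells and not a replicate error; neuron-like cells lie lowest, at 1.94% and 2.36%, and other leukocyte-like cells highest, at 6.15% and 6.31%.

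Between these ends the order differed in part between the libraries. A cluster led by Ttr and Fabp7, with markers of choroid plexus and of radial glia, stood at 3.20% and 4.0%. Radial glia-like cells gave 3.29% and 3.99%, pericyte-like cells gave 3.41% and 3.93%, and fibroblast-like cells gave 3.65% and 3.90%. These 4 stood in the opposite order in the Foxq1iECKO library, where they lay within 3.90% to 4.0%. Macrophage-like cells stood at 4.07% and 4.06%, a mixed endothelial and pericyte cluster at 4.31% and 4.81%, and cartilage or bone-like cells at 4.58% and 4.81%. A mixed cluster with neural crest and muscle markers stood at 5.11% and 5.18%. The share reached 5.37% and 5.59% in lymphatic endothelial-like cells. The order also changed with the way cells were weighted: cartilage-like cells, below endothelial-like cells by summed UMIs, were above them by the median cell, 4.51% and 4.66% against 4.09% and 4.57%.

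Depth moved with the share within endothelial-like cells. Cells of 1000 to 2000 UMIs gave 3.51% and 3.53%, cells of 2000 to 4000 UMIs 3.79% and 4.23%, cells of 4000 to 8000 UMIs 4.20% and 4.61%, and deeper cells 5.43% and 5.91%. In fibroblast-like cells of the Foxq1flox/flox library the share did not climb with depth, at 3.88%, 3.72%, 3.55% and 3.75% over the same steps. Neuron-like cells of that library gave 1.89%, 1.81%, 2.02% and 2.54%, below endothelial-like cells in each step.

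The low share of neuron-like cells was spread over nearly the whole ribosome. A gene counted as higher or lower where its ratio was at least 1.5 and its counting interval excluded 1, here in the same direction in both libraries. By this rule 75 of the 81 members at 20 CPM or more were lower in neuron-like than in endothelial-like cells, beside 23.2% of 7620 genes, and all 81 ratios lay below 1 in both libraries. The median log2 ratio of the members was -1.24 and -1.08, against 0.29 in each library over all genes tested. Scaling by TMM or by the median of ratios in place of total UMIs shifted all neuron over endothelial ratios by -0.40 and -0.42 (log2) in the Foxq1flox/flox library and by -0.35 and -0.40 in the other. The log2 ratio of the summed share then went from -1.34 to -1.74 and -1.77 in the Foxq1flox/flox library. It went from -1.17 to -1.52 and -1.57 in the Foxq1iECKO library. With these scalings 80 and 81 of 81 members were lower, beside 33.1% and 34.6% of all genes.

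Rps20 had the widest gap, at 1928 and 1947 CPM in endothelial-like cells and 507 and 595 CPM in neuron-like cells, a log2 ratio of -1.93 and -1.71. Rpl36a fell from 734 and 784 CPM to 235 and 314 CPM (-1.64 and -1.32), and Rps12 from 641 and 686 CPM to 206 and 248 CPM (-1.64 and -1.47). Rpl22 fell from 1393 and 1480 CPM to 454 and 580 CPM (-1.62 and -1.35), and Rps2 from 741 and 818 CPM to 247 and 308 CPM (-1.59 and -1.41). These 5 genes come from both subunits.

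The 6 members that did not pass were Rps10, Rpl11, Rpl13a, Rpl7a, Rpl7l1 and Rpl15. Rpl15 stood at 245 and 250 CPM in endothelial-like and 183 and 184 CPM in neuron-like cells, a log2 ratio of -0.42 and -0.44. Rpl7a stood at 246 and 281 CPM and at 170 and 191 CPM (-0.53 and -0.56). Rpl7l1 stood at 55.0 and 50.1 CPM and at 40.8 and 42.7 CPM (-0.43 and -0.23). Rpl15, Rpl7a and Rps10 carry a pyrimidine run at the annotated start, shown above, and Rpl11, Rpl13a and Rpl7l1 do not. Of the members with wide gaps named above, Rpl36a, Rps12, Rpl22 and Rps2 had no such run at any annotated start. Rps20 had no entry in the promoter table. Over all 67 members with an entry 32.8% had such a run, and a link between the run and the gap was not tested.

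**Figure D2:**
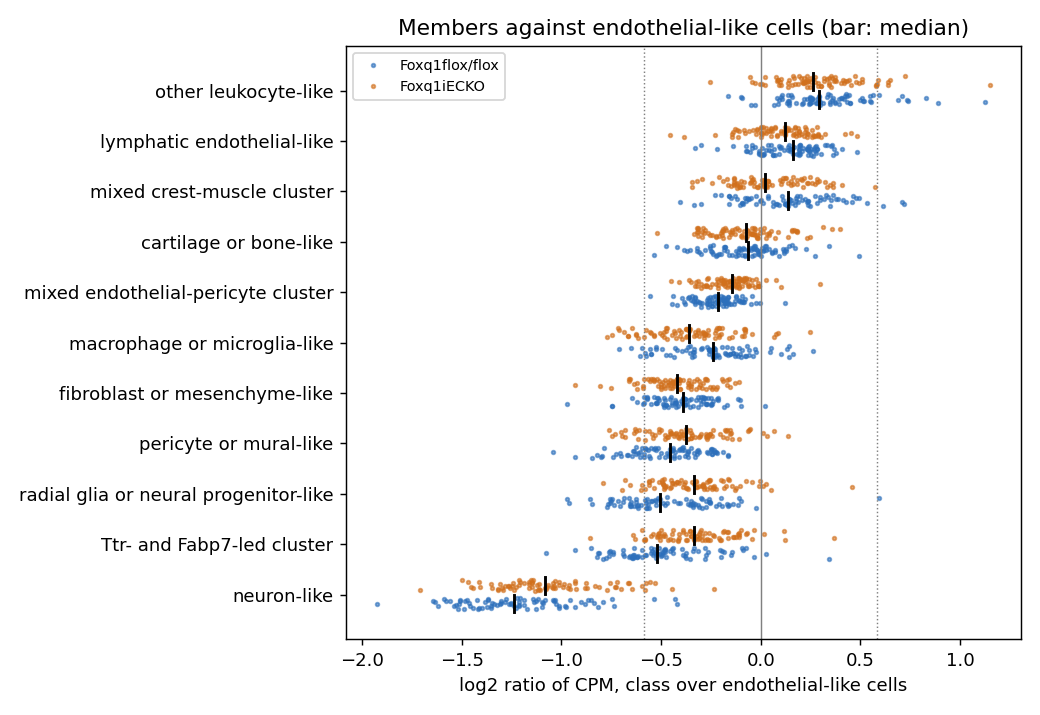
Log2 ratio of CPM of each of 81 members in a class over endothelial-like cells (x axis), by class (y axis) and library (colour), with the median as a black bar and dotted lines at 1.5-fold. All points of neuron-like cells lie below 0; leukocyte-like medians lie above 0 with scaling to total UMIs, at 0.29 and 0.26, while the summed share falls below the endothelial one with scaling by TMM or by the median of ratios.

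Other genes of translation were read in the same pair of classes, as shares of UMIs with no test. Partners of ribosomal proteins that also carry TOP tracts, 20 genes such as the elongation factor Eef1a1, Tpt1, Npm1 and Pabpc1, gave 1.28% and 1.52% of UMIs in neuron-like cells against 2.54% and 2.74% in endothelial-like cells. Initiation factors gave 0.696% and 0.717% against 0.777% and 0.798%, and ribosome biogenesis genes 0.286% and 0.281% against 0.340% and 0.338%. The nuclear genes for mitochondrial ribosomal proteins, which serve a separate ribosome, gave 0.221% and 0.230% in neuron-like and 0.216% and 0.219% in endothelial-like cells. Biogenesis genes were highest elsewhere, at 0.564% and 0.551% in leukocyte-like and 0.535% and 0.496% in radial glia-like cells.

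The counts for the other classes depended on the scaling. Relative to total UMIs, 0 to 9 members passed the rule against endothelial-like cells, a share below that of all genes in each class. In fibroblast-like cells 5 of 81 were lower, beside 15.1% of all genes: Rpl38, Rps20, Rpl35, Rps24 and Rps2. In pericyte-like cells 9 were lower (12.3% of all genes), led by Rpl38 at -1.04 and -0.64 and Rps7 at -0.93 and -0.68. In radial glia-like cells 6 were lower (20.2%), in macrophage-like cells 4 (22.6%) and in the Ttr- and Fabp7-led cluster 4 (17.9%). None of the 81 passed in either direction in cartilage-like cells (42.6% of all genes), lymphatic-like cells (23.1%), the mixed endothelial and pericyte cluster (12.9%) or the mixed crest and muscle cluster (36.2%). With TMM scaling, which shifted all ratios by between -0.57 and -0.23 in the next 4 comparisons, more members were lower: 50 in fibroblast-like cells beside 22.8% of all genes, 44 in pericyte-like cells beside 19.6%, 67 in radial glia-like cells beside 32.7% and 68 in the Ttr- and Fabp7-led cluster beside 32.4%. In macrophage-like cells, where the shift was -0.03 and -0.02, 8 were lower beside 23.6%. The median of ratios gave 50, 44, 67, 74 and 4 in these 5 comparisons, beside 22.8%, 19.6%, 32.8%, 33.4% and 23% of all genes.

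Rps20 and Rpl38 recur in these counts. Rps20 was lower than in endothelial-like cells in fibroblast-like (-0.75 and -0.75), pericyte-like (-0.85 and -0.76), radial glia-like (-0.97 and -0.79) and macrophage-like cells (-0.61 and -0.71). Rpl38 was lower in fibroblast-like (-0.97 and -0.93), pericyte-like, radial glia-like (-0.96 and -0.68) and macrophage-like cells (-0.71 and -0.71). Since all these ratios share the endothelial-like cells, they are not separate observations.

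Leukocyte-like cells were the opposite case. Relative to total UMIs, 5 of 81 members were higher than in endothelial-like cells, beside 28.3% of all genes, and the median was 0.29 and 0.26. Rplp1, a stalk protein of the large subunit that recruits elongation factors, rose from 185 and 192 CPM to 404 and 426 CPM, a log2 ratio of 1.13 and 1.15. The others were Rps18 (0.89 and 0.65), Rpl4 (0.74 and 0.64), Rpl14 (0.74 and 0.72) and Rpl21 (0.71 and 0.64). With TMM or median-of-ratios scaling the summed share of leukocyte-like cells went below the endothelial one, from 0.32 to -0.016 and -0.019 in the Foxq1flox/flox library. In the Foxq1iECKO library it went from 0.25 to -0.041 and -0.056. With TMM 1 of 81 members, Rplp1, was still higher, beside 17.6% of all genes.

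Endothelial-like cells were themselves divided. Cluster 0, led by Plvap, Emcn and Cyp1a1, met 14 of 15 endothelial markers and 0 of 10 barrier markers, and gave 5.60% and 5.74% of its UMIs to ribosomal protein genes. Cluster 3, led by Spock2, Slc2a1 and Abcb1a, met 15 of 15 and 9 of 10 and gave 3.96% and 4.13%. The median depth was 4859 and 5152 UMIs in cluster 0 and 3868 and 3024 in cluster 3, and the part of depth in the gap was not tested. In cluster 3 relative to cluster 0, 80 of 81 members lay below 0 in both libraries, with a median of -0.47 and -0.44 against -0.00 and 0.03 over all genes. By the rule 6 were lower, beside 4.79% of all genes: Rpl22l1 (-0.73 and -0.69), Rps15a (-0.69 and -0.59), Rpl39 (-0.69 and -0.73), Rps19 (-0.68 and -0.64), Rpl12 (-0.66 and -0.60) and Rps20 (-0.60 and -0.63).

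Rpl38 went the other way. It stood at 153 and 145 CPM in cluster 0 and at 235 and 226 CPM in cluster 3, a log2 ratio of 0.62 and 0.64, and was the 1 member that rose, beside 9.56% of all genes. Within the pool its share was 0.273% and 0.252% in cluster 0 and 0.592% and 0.546% in cluster 3. The mixed endothelial and pericyte cluster, which met 8 barrier markers, had the highest pool share of the 12 classes, 0.471% and 0.426%, and fibroblast-like cells the lowest, 0.261% and 0.223%.

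The make-up of the pool was otherwise similar across classes. Of the UMIs of the 77 subunits by name, large-subunit genes held between 50.9% (lymphatic endothelial-like) and 53.6% (pericyte-like) in the Foxq1flox/flox library. Endothelial-like cells stood at 50.9% and 51.2%. Rps27a kept a near-constant part, its highest pool share over the 12 classes being 1.23 and 1.26 times the lowest, and Rps13 had 1.18 and 1.16. The 10 members with the widest spread, chosen in the Foxq1flox/flox library, reached 1.72 to 3.01 times there and 1.42 to 2.13 times in the Foxq1iECKO library.

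Some of the 10 have near copies, as described above: Rpl7a 8, Rpl18 and Rpl27 4 each, Rpl38 3, and Rps10 and Rpl7l1 1 each. Rpl15, Rplp1, Rps29 and Rps19 have 0. The near copy of Rpl7l1 is Cd9, which is itself in the count files. The part of near copies in the spreads was not tested. Rpl7l1 had the widest spread. It held 0.252% and 0.172% of the pool in radial glia-like, 0.210% and 0.181% in neuron-like and 0.084% and 0.085% in leukocyte-like cells. Rpl15, a core protein of the large subunit, held 0.945% and 0.779% in neuron-like and 0.391% and 0.382% in leukocyte-like cells. Rpl7a held 0.877% and 0.811% in neuron-like and 0.491% and 0.517% in leukocyte-like cells, and Rpl27 reached 0.213% and 0.189% in neuron-like cells, its highest value in each library. Rplp1 was reversed, with 0.657% and 0.675% in leukocyte-like and 0.335% and 0.341% in neuron-like cells. Rps29, a small zinc-binding protein, was highest in macrophage-like cells, at 2.05% and 1.94%, and lowest in cartilage-like cells in one library (1.18%) and in leukocyte-like cells in the other (1.11%). The remaining members of the 10 were Rpl18, Rps19 and Rps10, with spreads of 1.79 and 1.42, 1.77 and 1.45, and 1.74 and 1.53. In cells of 2000 to 6000 UMIs the spread of Rps10 was 2.63 and 2.62.

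**Figure D3:**
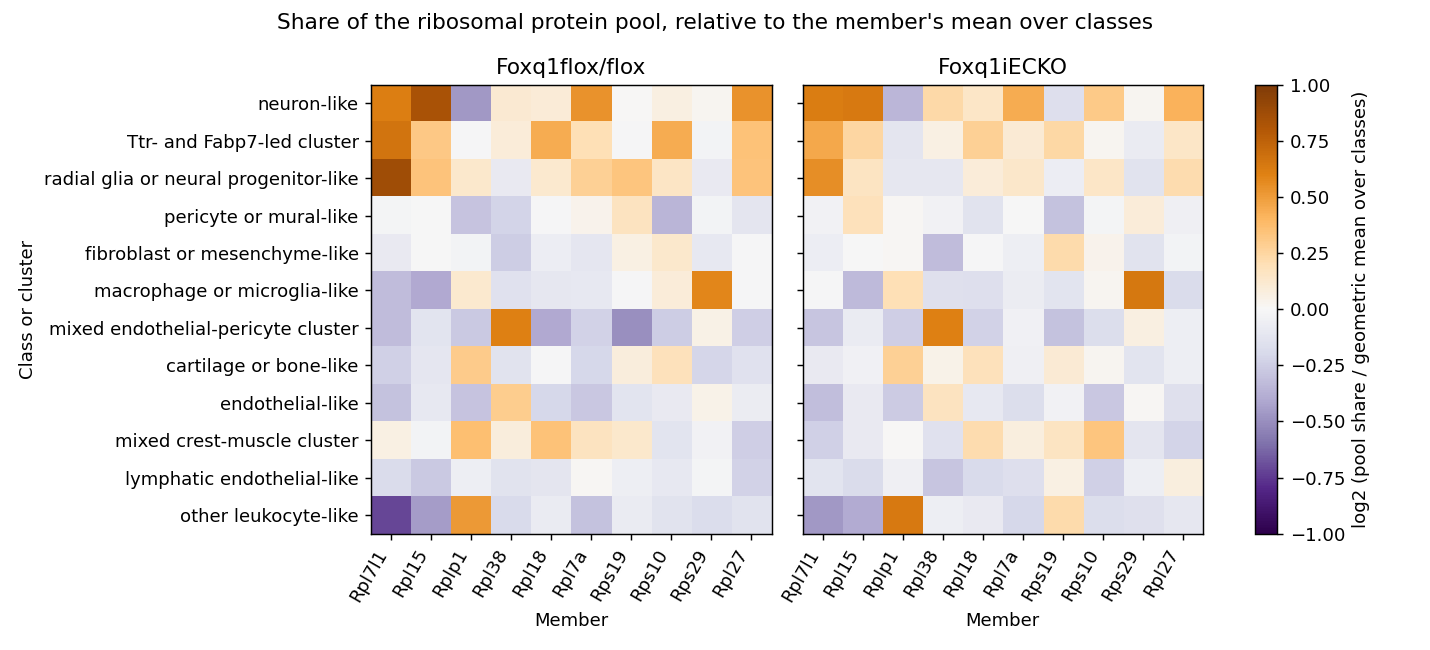
Share of the ribosomal protein pool held by each of the 10 members with the widest spread (x axis) in 12 classes and clusters (y axis), as log2 of the share over the member's geometric mean over classes (colour), for both libraries. Rpl7l1, Rpl15 and Rpl7a are high in the neural rows, Rplp1 in leukocyte-like cells, Rps29 in macrophage-like cells and Rpl38 in the mixed endothelial and pericyte cluster, in both panels.

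Cycling was read from each cell of at least 2000 UMIs after thinning to 2000, as 10 or more UMIs from lists of S and G2/M genes. Shallower cells were left out, among them 326 and 281 endothelial-like and 246 and 194 neuron-like cells. It is a range of a count and not a cell type, and 334 and 179 endothelial-like cells lay within 2 UMIs of the limit. By this call 63.1% and 66.6% of the endothelial-like cells read were cycling, and 27.8% and 33.7% of the neuron-like cells read. Neurons are known to be mostly postmitotic, but the neuron-like clusters differed in this call. It gave 17.4% and 19.9% in cluster 4, led by Pou4f1. In cluster 11, with Neurod6 and Eomes among its leading genes, it gave 36.2% and 40.3%, and in cluster 14, led by Dlx genes, 39.7% and 43.9%. In endothelial-like cells the share of ribosomal protein UMIs was 5.29% in 1237 cycling cells and 4.30% in 723 others of the Foxq1flox/flox library. In the Foxq1iECKO library it was 5.67% in 873 and 4.66% in 437 cells. The log2 ratios were 0.30 [0.29 to 0.31] and 0.28. Cycling cells were also deeper, with a median of 5949 against 4554 UMIs and of 5694 against 4664.

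Among cells of 2000 to 6000 UMIs the endothelial log2 ratio was 0.21 and 0.18, and with a limit of 20 UMIs it was 0.14 and 0.11. Within cluster 0 the difference was 0.20 and 0.19, and within cluster 3 it was 0.21 and 0.35. The difference was broad and small for single genes. Of 81 members 78 lay above 0 in both libraries, with a median of 0.30 and 0.31 against -0.04 and -0.07 over all genes, and 0 passed the rule, beside 5.77% of all genes. Rps2 (0.55 and 0.53), Rpl12 (0.53 and 0.53) and Rpsa, which also serves as a laminin receptor (0.57 and 0.41), were among the highest. Rpl38 (-0.24 and 0.06), Rps14 (-0.15 and 0.49) and Rps27 (0.00 and 0.10) were lowest in the Foxq1flox/flox library.

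**Figure D4:**
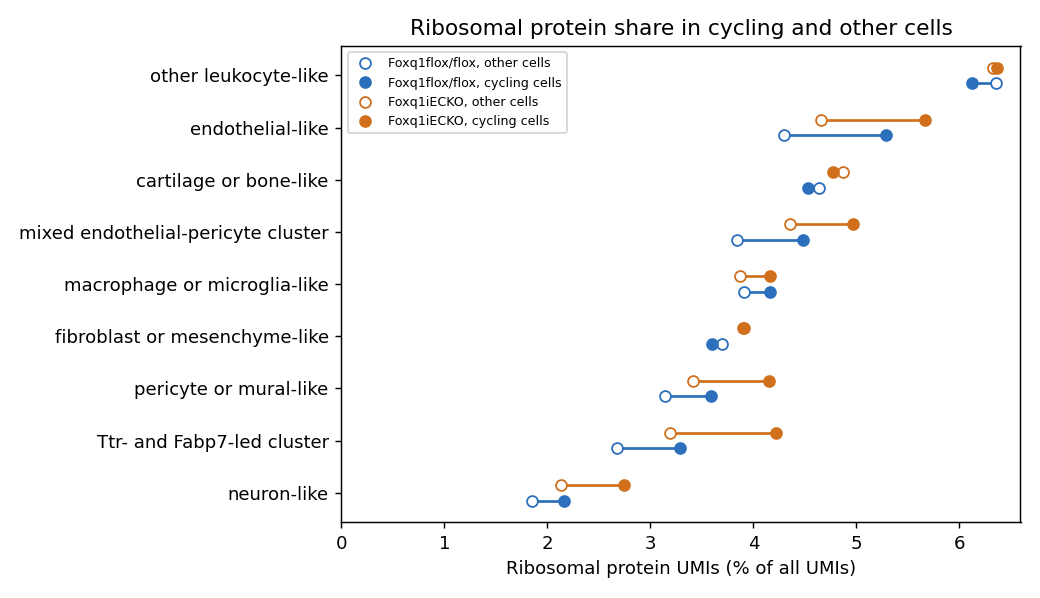
Share of UMIs from ribosomal protein genes (x axis, percent) in cycling cells (filled) and other cells (open) of 9 classes and clusters (y axis), for both libraries (colour). Endothelial-like cells go from 4.30% to 5.29% and from 4.66% to 5.67%, while in fibroblast-like cells the filled and open dots nearly coincide.

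Other classes did not all show a gap. The log2 ratio was 0.23 and 0.36 in neuron-like cells, 0.19 and 0.28 in pericyte-like cells, 0.22 and 0.19 in the mixed endothelial and pericyte cluster and 0.30 and 0.41 in the Ttr- and Fabp7-led cluster. In macrophage-like cells it was 0.09 and 0.10. Their clusters differed: it was 0.16 and 0.17 in cluster 2, led by Lyve1, and -0.04 and -0.01 in cluster 5, led by P2ry12. In fibroblast-like cells the shares were 3.60% in 1224 cycling and 3.70% in 1121 other cells, and 3.90% in 1166 and 3.91% in 1148 cells. The 5 fibroblast-like clusters ran from -0.16 to 0.04 and from -0.12 to 0.09. Cartilage-like cells gave -0.03 and -0.03, and leukocyte-like cells -0.05 and 0.01. Radial glia-like and lymphatic-like cells had too few other cells to compare, since 97.5% and 95.5% of the former were called cycling. Differences between classes in this ratio were not tested.

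Rps27l was higher in cycling cells throughout. It lay above 0 in all 9 classes and clusters in both libraries. The share of other members or of all genes with this pattern was not counted. In neuron-like cells it rose from 56.6 to 105 CPM and from 79.1 to 136 CPM, log2 ratios of 0.89 and 0.78, and was the 1 of 80 members to pass there, beside 8.98% of all genes. In endothelial-like cells it stood at 171 CPM in other and 233 CPM in cycling cells, and at 177 and 252 CPM in the Foxq1iECKO library (0.44 and 0.51). In macrophage-like cells the ratio was 0.54 and 0.41, in leukocyte-like cells 0.65 and 0.51, and in fibroblast-like cells, where the pool as a whole gave -0.04 and -0.00, 0.22 and 0.25. Its relative Rps27 gave -0.01 and 0.25 in neuron-like, -0.47 and -0.28 in leukocyte-like and -0.21 and -0.14 in fibroblast-like cells.

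In fibroblast-like cells 0 of 80 members passed, beside 5.04% of all genes higher and 1.11% lower. The highest in the Foxq1flox/flox library after Rps27l were Rpl7l1 (0.20, and -0.17 in the other library), Rpl19 (0.13 and 0.00) and Rpl22l1 (0.11 and 0.12), and among the lowest were Rpl10 (-0.25 and -0.27) and Rps19 (-0.23 and 0.08). In pericyte-like cells Rplp1 rose (1.05 and 0.64), 1 of 81 members beside 4.56% of all genes. In the Ttr- and Fabp7-led cluster 7 of 80 rose, beside 5.08% of all genes, among them Rpl35, Rpl28, Rps3, Rpsa, Rpl14 and Rpl38.

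Between genotypes the ribosomal protein share was somewhat higher in the Foxq1iECKO library in most classes, and the endothelial-like value lay within the range of the others. The log2 ratio was 0.11 [0.10 to 0.11] in endothelial-like cells, 0.10 in fibroblast-like, 0.07 in cartilage-like, 0.06 in lymphatic-like and 0.04 in leukocyte-like cells. It was 0.20 in pericyte-like, 0.28 in neuron-like and radial glia-like cells and 0.32 in the Ttr- and Fabp7-led cluster, and -0.00 [-0.01 to 0.00] in macrophage-like cells. Each neuron-like cluster gave less than the pooled 0.28: 0.20 in cluster 4, 0.17 in cluster 11 and 0.15 in cluster 14. Cluster 11 had the highest ribosomal protein share of them, 2.42% and 2.73%. It made up 422 of 2005 and 527 of 1304 neuron-like cells, and the part of this mix in the pooled value was not tested. In cells of 2000 to 6000 UMIs the radial glia-like value was 0.07 and that of the Ttr- and Fabp7-led cluster 0.08. Within the endothelial clusters the log2 ratio was 0.04 in cluster 0 and 0.06 in cluster 3, and cluster 3, the lower of them in ribosomal protein share, held 1042 of 2286 cells in the Foxq1flox/flox library and 592 of 1591 in the Foxq1iECKO library.

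Of the 81 members 0 passed the rule by genotype in endothelial-like cells, beside 1.29% of 6215 genes. With the limit on size lowered, 1 member passed, Rpl36. The share of all genes at that lower limit is not given, so this call cannot be weighed against a background. The members were 44 above and 37 below 0, with a median of 0.03 against -0.02 over all genes. Within cluster 0 the balance turned, with 32 above and 49 below 0 and a median of -0.06 against -0.02 over all genes, and within cluster 3 it was 48 above and 33 below, with a median of 0.04 against 0.01. The highest were Rpl35a, at 879 and 1058 CPM (0.27), Rpl39, at 2289 and 2742 CPM (0.26), Rps4x, at 1598 and 1907 CPM (0.26), Rps24, at 1831 and 2182 CPM (0.25), and Rpl7, at 2041 and 2393 CPM (0.23). The lowest were Rpl36, at 27.0 and 20.9 CPM (-0.37), Rpl35, at 158 and 128 CPM (-0.30), Rps10, at 77.4 and 63.9 CPM (-0.28), Rpl14, at 302 and 250 CPM (-0.28), and Rps3a1, at 612 and 518 CPM (-0.24). Both ends hold genes of both subunits. A pyrimidine run stood at 1 annotated start of Rpl35a, Rpl39 and Rps24 at one end and of Rpl35, Rps10 and Rpl14 at the other. Rps4x and Rps3a1 had none, and Rpl7 and Rpl36 had no entry in the promoter table.

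**Figure D5:**
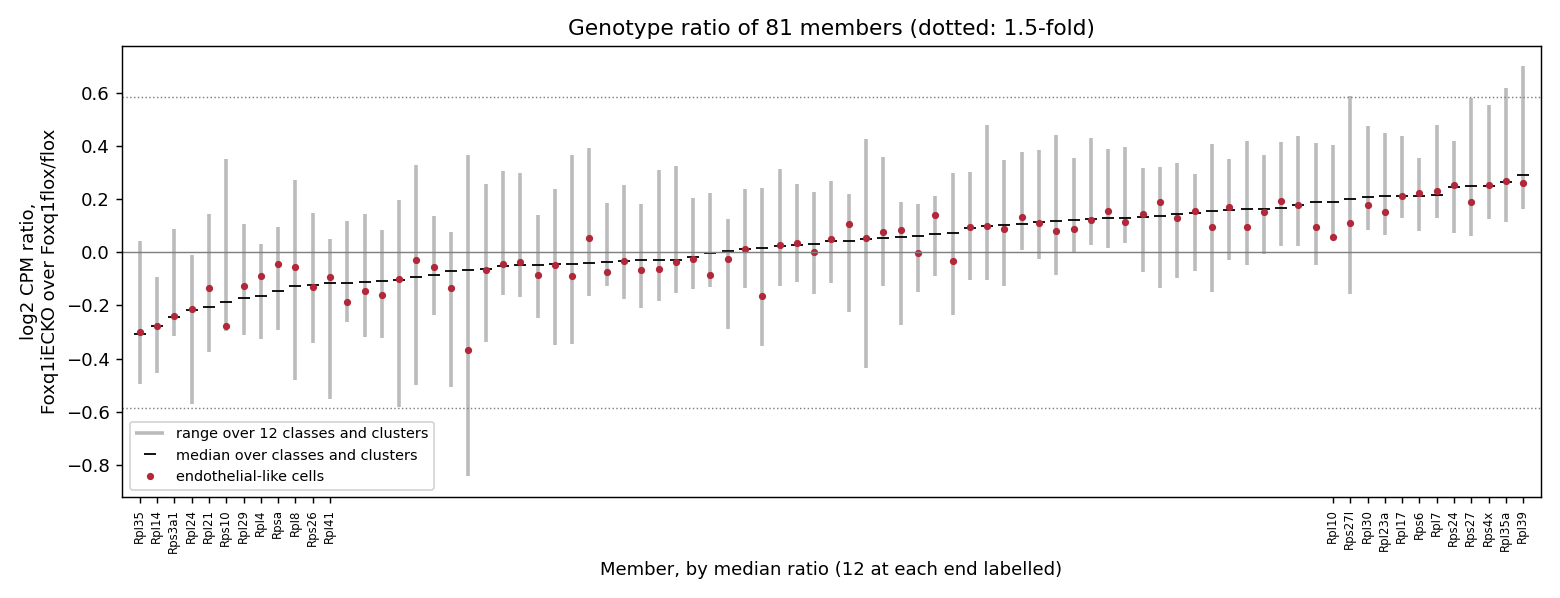
Log2 ratio of CPM, Foxq1iECKO over Foxq1flox/flox (y axis), of 81 members ordered by their median over 12 classes and clusters (x axis, with the 12 at each end labelled): grey bars span the range over classes, black ticks the median, red dots endothelial-like cells, dotted lines 1.5-fold. Members at the left, such as Rpl35 and Rpl14, lie below 0 in most or all classes and those at the right, such as Rpl39 and Rpl35a, above 0 in all 12.

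Part of the members had the same sign in every class. Of 80 members tested in all 12 classes and clusters 17 (21.25%) lay above 0 in each, beside 2.46% of 4434 genes tested in all 12 and 3.29% of 2039 other genes of at least 100 CPM. Among them were Rpl39 (median 0.29), Rpl35a (0.26), Rps4x (0.25), Rps27 (0.25) and Rps24 (0.25). Rpl14 (-0.28) and Rpl24 (-0.22) lay below 0 in all 12, which is 2.5% of the members beside 2.98% of all genes. Past 1.5-fold were Rpl39 in the Ttr- and Fabp7-led cluster, at 1270 and 2062 CPM (0.70; 2.53% of all genes were higher there), Rpl35a in radial glia-like cells, at 489 and 750 CPM (0.62; 1.59%), and Rps27l in pericyte-like cells, at 137 and 206 CPM (0.59; 2.36%). The 12 classes of a library were processed together, so their ratios share its preparation and are not replicates.

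The ratio varied with base composition and level. In endothelial-like cells its rank correlation across the 81 members was -0.45 with GC content and 0.63 with CPM, and over the 12 classes the former ran from -0.48 to -0.27. Over the 6213 genes tested with a known GC content, the same correlations were 0.01 and 0.06. Among 2071 other genes of at least 100 CPM they were 0.05 and 0.05. The part of composition in the ratios was not tested, and library preparation and genotype cannot be told apart with 1 library each.

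Other lists of the translation machinery had medians from -0.02 to 0.10 by genotype in endothelial-like cells, beside -0.02 over all genes. The TOP partners were highest, and their summed share of UMIs was 2.54% and 2.74%. The median log2 ratio was 0.10 for the 20 TOP partners, with Eef1a1 at 7667 and 8413 CPM and Npm1 at 2385 and 2574 CPM, 0.06 for 23 initiation factors, -0.00 for 35 biogenesis genes, with Ncl at 1218 and 1220 CPM, and 0.05 for 11 genes of RNA polymerase I. It was -0.02 for 59 mitochondrial ribosomal protein genes. None of these genes passed the rule, beside 0.826% of 7989 genes higher and 0.964% lower. Of 14 measured genes that control ribosome production 1 passed: Myc, which drives ribosome genes, rose from 44.9 to 68.7 CPM (0.61). Within cluster 0 it stood at 61.2 and 82.8 CPM (0.44) and within cluster 3 at 21.8 and 30.9 CPM (0.50), both under 1.5-fold.

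Levels of stress genes also differed between the libraries, but not in the same direction in every class. In endothelial-like cells the heat shock gene Hspa1a fell from 64.4 to 31.5 CPM (-1.03), the median of 15 stress genes was -0.11, and the nuclear RNA Malat1 stood at 2772 and 2220 CPM (-0.32). Median mitochondrial share was 8.61% and 8.52% in these cells. The median of the same list was -0.04 in lymphatic-like cells, where 2 genes were lower by the rule. It was 0.10 in fibroblast-like cells, and 0.03 in cartilage-like cells, where 2 genes were higher and 0 lower. Malat1, in contrast to the list as a whole, was lower in the Foxq1iECKO library in every class. It stood at 3718 and 2991 CPM over all cells used, at 4477 and 3869 CPM in fibroblast-like and at 4942 and 3337 CPM in cartilage-like cells. The part of handling in the ribosomal protein ratios was not tested.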

How the data were processed

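Per the file headers and values, the authors deposited raw UMI counts, one whole number for each gene in each barcode. The submitters' notes list the tools fastp 0.24.0 and STARsolo 2.7.11b and the build mm10; the sources used here give neither annotation version nor handling of multi-gene reads. Groups follow the genotype labels. Cells were required to have 500 genes, 1000 UMIs and a mitochondrial share of 20% or less. Scrublet (scanpy 1.11.5, 8% expected) removed doublets. Libraries were clustered together (log values of 10000 UMIs per cell, 2000 variable genes without members and translation lists, 30 components, 20 neighbours, leidenalg 0.10.2, resolution 1). A cluster took a class name from at least 3 markers at 50 CPM and 2-fold above other cells; one that also met 50% of another class's markers was called mixed. Names rest on this clustering.

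UMIs were summed per class. Shares have exact Clopper-Pearson intervals and ratios exact conditional binomial intervals, at 95%, for counting error only. Cell barcodes are not replicates. The size rule was a 1.5-fold ratio with an interval excluding 1, at 20 CPM on at least 1 side; translation lists used 10 CPM. Cycling states left out cells below 2000 UMIs and needed 50 cells each. Genes were named by fixed rules: the 12 most abundant members, 10 with the widest pool spread, the 5 highest and 5 lowest by genotype, paralogs, and members past the size rule; a few genes are not reported here. Members and lists were chosen with earlier results of these data known. Near copies were found with blastn 2.17.0. The size rule was tested on simulated data. Alternatives covered scaling (edgeR 4.0.16 TMM, DESeq2 1.42.0 median of ratios), filters, clustering, depth, weighting and the cycling limit.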

Additional observations from a re-analysis of the deposited data

Results flagged for a closer look

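Over 27 clusters, the ribosomal protein share was higher in the Foxq1iECKO library in 24, by counting intervals that excluded 0, and lower in 2; in the remaining 1 the interval held 0. Cluster 2, macrophage-like cells led by Lyve1, F13a1 and Mrc1, gave a log2 ratio of -0.039, from 4.33% to 4.21%. Cluster 25, leukocyte-like cells led by S100a8 and S100a9, gave -0.050, from 5.23% to 5.05%, in 99 and 91 cells. Both stand out because their direction is opposite to that of the other clusters, endothelial ones included. The difference between clusters was not tested, since each genotype has 1 library. Median depth was 5134 and 4700 UMIs in cluster 2 and 4049 and 3150 UMIs in cluster 25.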

How the results depend on the processing

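The neuron over endothelial log2 ratio of the share (-1.34 and -1.17 for the libraries in their order above) stayed below 0 in every alternative run. It was -1.39 and -1.22 without mitochondrial UMIs, -1.19 and -1.03 with cells weighted equally, -1.06 and -0.98 in cells of 2000 to 6000 UMIs, -1.38 and -1.20 with stricter filters, -1.27 and -1.11 with doublets kept, -1.31 and -1.15 at resolution 0.5, -1.26 and -1.13 with clusters weighted equally, -1.35 and -1.19 for members without near copies, -1.74 and -1.52 with TMM, and -1.77 and -1.57 with the median of ratios. The last 3 settings were chosen after seeing the data.

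The endothelial cycling ratio (0.30 and 0.28) also kept its sign. It was 0.14 and 0.11 at a limit of 20, 0.26 and 0.21 with the core list, 0.28 and 0.23 with cells weighted equally, 0.31 and 0.30 without S and G2/M UMIs, 0.32 and 0.31 with another thinning seed, 0.21 and 0.18 in cells of 2000 to 6000 UMIs (added after seeing the data), and 0.21 and 0.27 within clusters. With the middle left out it was 0.35 in the first library, and at a limit of 6 it was 0.30 in the second.

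The endothelial genotype ratio (0.11) was 0.12 with TMM and with the median of ratios, 0.10 with cells weighted equally, 0.046 with clusters weighted equally, 0.11 for members without near copies (added later), 0.14 in cells of 2000 to 6000 UMIs, 0.10 with stricter filters, 0.088 at resolution 0.5 and 0.090 with the mixed cluster added. With the lower limit on size 1 member, Rpl36, passed in place of 0, with no share of all genes given beside it. Rpl7l1 spread 2.73 times in cells of 2000 to 6000 UMIs of the Foxq1iECKO library. The tract share was 55.2% when the run only had to cover a base within 5 bases of the annotated start.

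Small class ratios to endothelial-like cells turned sign. For cartilage they became 0.11 and 0.063 with cells weighted equally and 0.26 and 0.17 in cells of 2000 to 6000 UMIs. For lymphatic cells they became -0.0039 and -0.025 with TMM and, in the second library, -0.015 with the median of ratios. For leukocytes they became -0.016 and -0.041 with TMM and -0.019 and -0.056 with the median of ratios. For macrophages the first library gave 0.0080 in cells of 2000 to 6000 UMIs. For the mixed crest and muscle cluster the first library gave -0.43 with TMM and -0.42 with the median of ratios, and the second 0.0047 with cells weighted equally, 0.19 in cells of 2000 to 6000 UMIs, 0.016 with the translation lists in the clustering and 0.069 with clusters weighted equally. Cycling ratios near 0 turned too: cartilage to 0.0044 (2000 to 6000 UMIs) and 0.013 (within clusters) in the first library and 0.0040 (limit of 6) and 0.019 (within clusters) in the second, fibroblasts to 0.0046 (limit of 6) and leukocytes to 0.078 (within clusters) in the first. Other ratios near 0 had no stable sign: the second library's cycling ratio ran from -0.071 to 0.045 in fibroblasts and from -0.020 to 0.030 in leukocytes, and the genotype ratio from -0.0085 to 0.043 in macrophages and from -0.092 to 0.082 in the mixed crest and muscle cluster. The cause was not tested in these cases. No paired analysis was possible because each genotype has 1 library, and for the same reason no library could be left out. Depth limits the rarest members: Rpl10l, Rpl3l and Rps23rg1 had too few UMIs for any ratio.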
